A study of Homo sapiens with 8 samples.

Results

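In HL-60, an established human line of promyelocytic leukaemia, 49 of 60240 listed genes were near 0 with the solvent and reached a set level in both libraries only when decitabine and RG3039 were given together. They were chosen by their measured values, as follows. A gene had to stand at 3 or less in both DMSO libraries and at 20 or more in both combination libraries, and not at 20 or more in both libraries of either single drug. Genes whose names begin in 1 of 16 set ways (among them the MAGE, metallothionein, chemokine, interleukin, solute carrier, zinc finger, histone and LINC genes) were left out, which removed 10 genes. Values are normalised read counts as the authors deposited them. Because the rule read all 8 libraries, the members' own levels are given as a description, with no test.

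The 8 libraries form 4 groups of 2, taken at 72 hours: DMSO alone, decitabine at 100 nM added daily from day 0 to day 2, RG3039 at 2 µM added on day 0, and both drugs on those schedules (the combination). The cells are labelled wild type, and all groups are the same line. Wells were seeded in duplicate, so a p-value here measures the spread between such duplicates, and n is 2 in every group. RNA was read from the 3′ end of polyadenylated transcripts, which counts about 1 tag per transcript and gives no view of where transcription began.

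Decitabine is a cytosine nucleoside mimic. Once incorporated during replication it traps DNA methyltransferases, and methylation of CpG sites is lost as cells divide. Methylated CpG sites near a start site are a known mark of silenced genes, among them germline genes and genes of other tissues, and their loss can allow transcription. RG3039 is an inhibitor of DcpS, which hydrolyses the cap remnant released when mRNA is degraded from its 3′ end. 

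The word "only" holds for the level of 20 and not for detection. The label of these genes, on only with both drugs, was therefore not fully borne out. Of the 49 members, 3 stood at 3 or less in all 4 single-drug libraries, and the other 46 were above 3 in at least 1 of them. With decitabine alone, 24 members were above 3 in both libraries, against 1.5% of the 37766 genes that were at 3 or less in both DMSO libraries (called silent in DMSO below) and 84.2% of the 57 other such genes that passed 20 with the combination. With RG3039 alone, 20 members were above 3 in both libraries, against 1.03% and 36.8% of the same genes. Both single drugs did so for 10 members, decitabine alone for 14, RG3039 alone for 10 and neither for 15. A value of 20 or more in at least 1 single-drug library was seen in 21 members. The members are therefore named below by the rule, as genes that passed 20 with the combination.

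The sequence at the start sites was compared next. RefSeq promoter windows (GRCh38.p14, 250 bases before to 50 after the start) were found for 26 of the 49 members. A window was called CpG-rich when its GC content was at least 55% and its observed over expected CpG at least 0.6. By that measure 11 of the 26 were CpG-rich (42.3%), close to the 44.2% of all 27305 windows in the table, beside 25.3% of 5843 windows of genes silent in DMSO and 71.9% of 11081 windows of genes whose mean value was 10 or more. Windows of the other genes silent in DMSO and at 20 or more with the combination were CpG-rich in 12 of 29. CpG sites in the member windows ran from 1 (MYO1A and SFTPD) to 42 (CBARP and CARD10). The following 4 windows are shown as examples of both classes. Those of NR4A3 with 38 CpG sites and TDRD6 with 26 were CpG-rich, and those of CYP11A1 with 5 and CCR3 with 2 were not. Capitals mark every CpG, the site that DNA methyltransferases methylate, and each is written 5′ to 3′ on the strand of the gene.
NR4A3 (chr9:99821635-99821934, plus strand): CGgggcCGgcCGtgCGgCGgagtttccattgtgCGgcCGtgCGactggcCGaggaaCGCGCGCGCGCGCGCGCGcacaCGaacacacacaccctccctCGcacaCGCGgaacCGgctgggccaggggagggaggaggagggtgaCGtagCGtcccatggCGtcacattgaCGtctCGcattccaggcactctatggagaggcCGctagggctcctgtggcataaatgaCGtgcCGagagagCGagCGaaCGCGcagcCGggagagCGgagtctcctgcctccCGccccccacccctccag
TDRD6 (chr6:46687635-46687934, plus strand): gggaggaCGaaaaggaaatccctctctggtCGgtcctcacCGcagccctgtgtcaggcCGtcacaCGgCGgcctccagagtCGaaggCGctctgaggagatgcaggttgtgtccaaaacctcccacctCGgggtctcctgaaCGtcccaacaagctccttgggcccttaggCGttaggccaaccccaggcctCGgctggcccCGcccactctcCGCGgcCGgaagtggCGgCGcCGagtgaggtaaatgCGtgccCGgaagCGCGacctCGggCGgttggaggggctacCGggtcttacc
CYP11A1 (chr15:74367597-74367896, minus strand): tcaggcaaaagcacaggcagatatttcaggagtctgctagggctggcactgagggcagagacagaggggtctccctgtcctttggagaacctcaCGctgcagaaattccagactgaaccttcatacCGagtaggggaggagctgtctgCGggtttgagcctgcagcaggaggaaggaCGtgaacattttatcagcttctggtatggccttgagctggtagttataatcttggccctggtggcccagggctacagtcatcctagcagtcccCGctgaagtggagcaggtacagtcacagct
CCR3 (chr3:46242131-46242430, plus strand): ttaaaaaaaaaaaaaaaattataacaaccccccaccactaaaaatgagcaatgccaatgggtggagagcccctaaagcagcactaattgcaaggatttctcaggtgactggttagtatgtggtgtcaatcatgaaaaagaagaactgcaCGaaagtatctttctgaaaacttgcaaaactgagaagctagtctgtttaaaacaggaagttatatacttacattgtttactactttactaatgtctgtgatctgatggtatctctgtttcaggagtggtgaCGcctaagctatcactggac

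The CpG content of the 26 windows fell into a lower and an upper range. Observed over expected CpG ran from 0.0673 in SFTPD to 0.400 in TPH2 for 13 windows, and from 0.602 in GNG11 to 1.04 in NR4A3 for the other 13. Among the 11 CpG-rich members the decitabine mean was the larger single-drug mean in 8 and the RG3039 mean in 3. Among the 15 others the decitabine mean was the larger in 5 and the RG3039 mean in 10. The combination mean had a median of 49.01 (range 26.2 to 116) in the CpG-rich class and 30.8 (range 21.99 to 93.9) in the others, so that the ranges overlapped. These are counts over members picked by level, with no test.

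**Figure D1:**
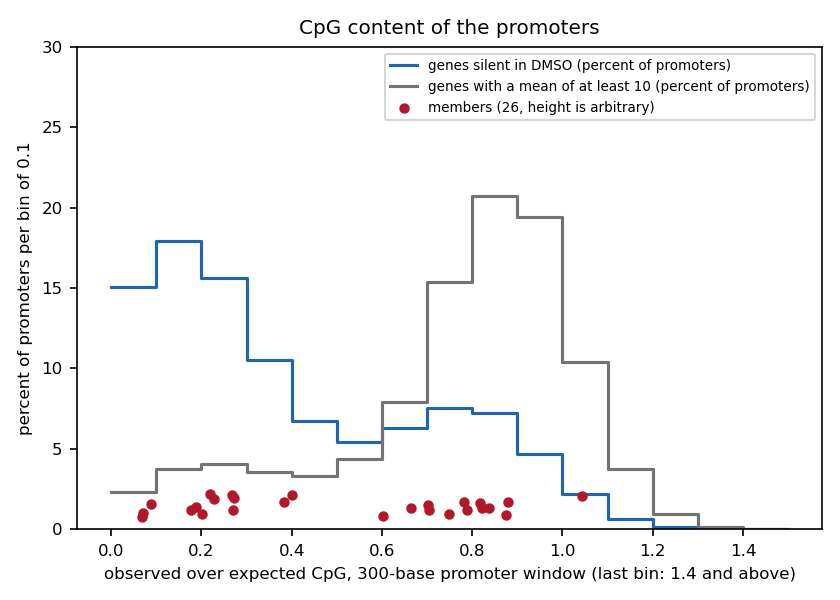
Observed over expected CpG in the 300-base promoter windows (x axis). Lines give the percent of windows per bin of 0.1 for genes silent in DMSO and for genes whose mean was 10 or more, and red points are the 26 members with a window (their height carries no value); members lie in both ranges, 13 at or below 0.400 and 13 at or above 0.602.

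Short motifs were counted in the same windows on both strands. The GC box GGGCGG was in 13 of 26 member windows (50.0%), against 44.6% of all 27305 windows in the table. The AP-1 motif TGANTCA was in 4 (15.4%, against 7.76%), those of SFTPD, ADGRE3, SPRED3 and BAIAP3. The TATA box TATAAA was in 1, that of TPH2 (3.85%, against 11.95%). The metal response cores TGCGCNC and TGCACNC, counted together, were in 5 (19.2%, against 29.3%), the ETS motif CCGGAAG in 2 (7.69%, against 10.7%) and the PU.1 core GAGGAAG in 3 (11.5%, against 13.4%). The E box CACGTG and the CRE TGACGTCA were in 0 of 26, against 7.43% and 1.98% of all windows. With so few windows, 1 more match would move a share by several percentage points, and a match is only a match of letters.

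With the combination the members were low to moderate in level. In bulk RNA, a gene on in few cells and a gene low in all of them cannot be told apart, nor can fewer cells of a type and less RNA per cell. Their mean over the 2 combination libraries had a median of 40.9 and ran from 21.99 (TSPYL6) to 175 (AC048338.2), with 33 members under 50, 12 from 50 to under 100 and 4 at 100 or above. Sequencing depth sets what these values mean. A single read was worth 0.757 and 1.51 in the DMSO libraries, 0.832 and 0.702 in the combination libraries and 0.796 to 1.35 in the others. A value of 20 thus stood for about 24 and 28 reads with the combination and 15 to 25 with a single drug, and a value of 3 for about 4 and 2 reads with DMSO. The lowest member in combination replicate 1 was TSPYL6 at about 25 reads, whose exact Poisson 95% interval runs from a value of 13.5 to 30.7 and covers counting error only. The 2 combination libraries were within 2-fold of each other for 41 of 49 members, and the widest gap, 3.77-fold, was that of CARD10. The rule asked for 20 or more in both of these libraries, so this closeness was partly set by the choice of genes.

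Of 37766 genes silent in DMSO, 106 were at 20 or more in both combination libraries (0.281%), 53 in both decitabine libraries (0.14%) and 19 in both RG3039 libraries (0.0503%). Of the 106, 33 were also at 20 or more with decitabine and not RG3039, 10 with RG3039 and not decitabine, and 4 with both. The other 59 are the 49 members and the 10 left out by name. The level was not reached with the combination by 16 of the 53 decitabine genes and 5 of the 19 RG3039 genes. Read in the opposite direction, 24 genes were at 20 or more in both DMSO libraries and 3 or less in both combination libraries, and 17 of them were not at 3 or less in both libraries of either single drug.

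**Figure D2:**
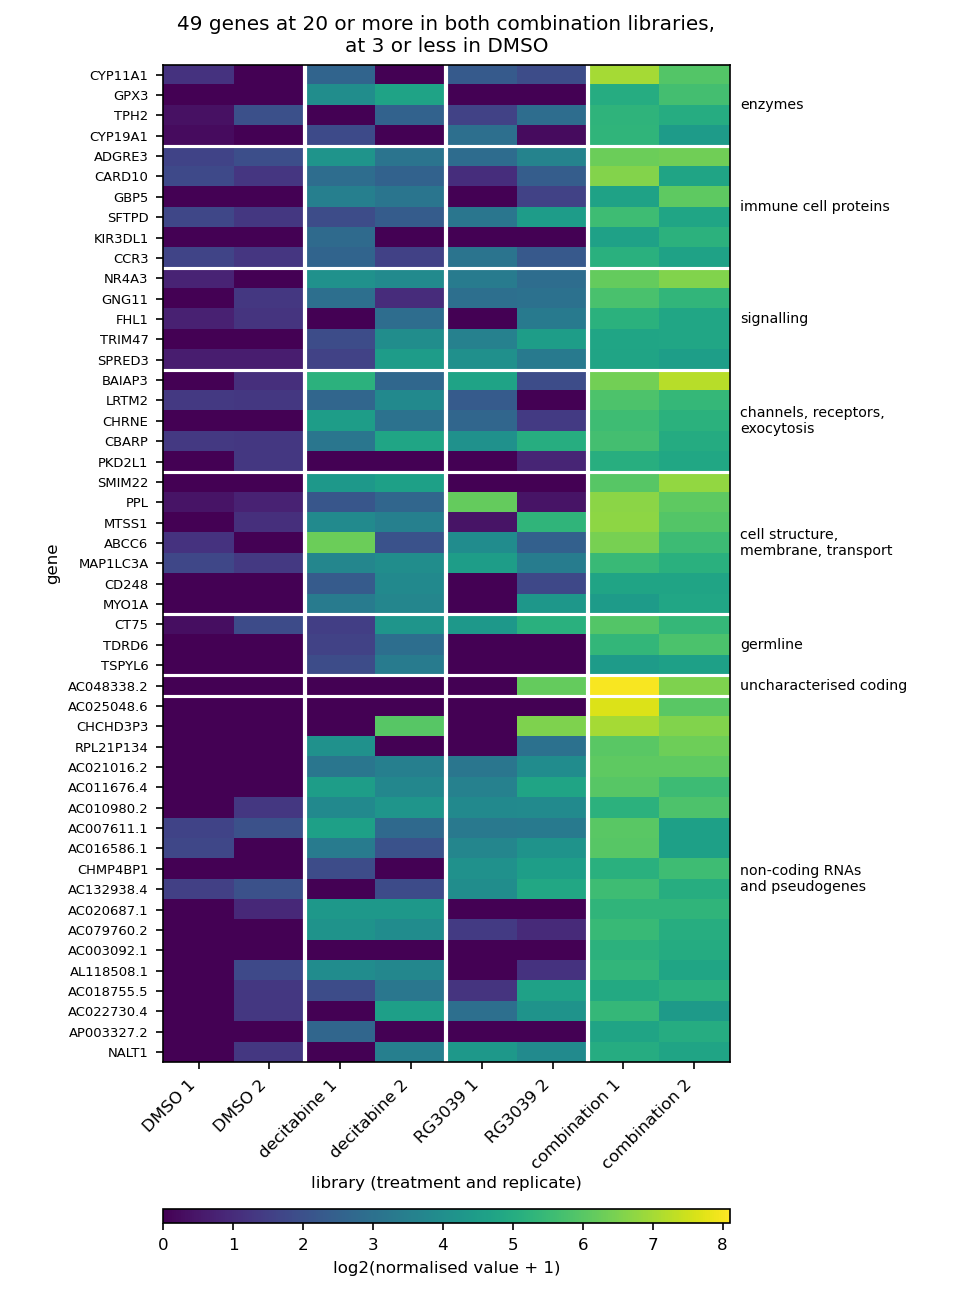
Normalised values of the 49 members as log2(value + 1) (colour) in the 8 libraries (columns), with genes in rows grouped by what their products are known for. The DMSO columns are dark by the rule and the combination columns bright, while the 4 single-drug columns between them hold at least 1 value above 3 for 46 of 49 genes.

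The 4 enzyme genes were spread over steroid, amine and peroxide metabolism. CYP11A1, which encodes the mitochondrial enzyme that starts steroid synthesis from cholesterol (ENSG00000140459.18, chr15:74337759-74367740, minus strand), stood at 1.29 and 0 under DMSO, 5.08 and 0 under decitabine, 3.92 and 2.71 under RG3039, and 127 and 60.4 under both drugs. CYP19A1, the gene of aromatase, which makes oestrogens (ENSG00000137869.15, chr15:51208057-51338610, minus strand), stood at 0.173 and 0 under DMSO, 2.54 and 0 under decitabine, 6.77 and 0.182 under RG3039, and 38.1 and 20.8 under both drugs. For both genes the combination libraries lay above all 6 others, and each single drug gave no more than a few reads. TPH2, the serotonin-synthesising tryptophan hydroxylase of neurons, stood at 0.287 and 2.95 under DMSO, 0 and 4.81 under decitabine, 2.04 and 6.43 under RG3039, and 37.4 and 31.5 under both drugs. GPX3, a secreted glutathione peroxidase (ENSG00000211445.12, chr5:151020438-151028993, plus strand), was listed at 0 in DMSO and in both RG3039 libraries, at 14.8 and 24.9 with decitabine and at 31.5 and 50.4 with the combination. In GPX3 the level of decitabine replicate 2 lay close under that of combination replicate 1.

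The 6 members with known immune roles included receptors of mature blood cells. ADGRE3, an adhesion G protein-coupled receptor of myeloid cells (ENSG00000131355.15, chr19:14619117-14690027, minus strand), stood at 2.12 and 2.81 under DMSO, 17.2 and 7.75 under decitabine, 6.26 and 11.4 under RG3039, and 76.1 and 79.7 under both drugs. Its combination libraries were close to each other and far above the highest single-drug library. CCR3, the eotaxin receptor of eosinophils and basophils, stood at 2.17 and 1.44 under DMSO, 5.16 and 1.99 under decitabine, 7.71 and 3.81 under RG3039, and 34.1 and 24.2 under both drugs. KIR3DL1, an inhibitory receptor of natural killer cells, was listed at 0 in 5 libraries, at 5.898 in decitabine replicate 1 and at 23.6 and 35.5 with the combination. KIR genes are close copies of each other, so reads may have been shared among them. GBP5, an interferon-inducible GTPase and the only member among 54 listed interferon-stimulated genes, stood at 0 and 0 under DMSO, 10.2 and 7.84 under decitabine, 0 and 2.05 under RG3039, and 24.3 and 66.98 under both drugs. Its combination libraries lay 2.75-fold apart. CARD10, a scaffold of NF-kB signalling, stood at 2.44 and 1.41 under DMSO, 6.498 and 4.85 under decitabine, 1.09 and 4.29 under RG3039, and 96.2 and 25.5 under both drugs, so that its level rests mostly on combination replicate 1. SFTPD, the surfactant collectin of lung, stood at 2.27 and 1.51 under DMSO, 2.697 and 4.16 under decitabine, 8.06 and 21.5 under RG3039, and 46.6 and 25.97 under both drugs, with RG3039 replicate 2 close to combination replicate 2.

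Among 5 signalling genes, NR4A3 had the highest level with the combination. NR4A3, an orphan nuclear receptor and immediate early gene (ENSG00000119508.18, chr9:99821855-99866891, plus strand), stood at 0.757 and 0 under DMSO, 16.2 and 13.5 under decitabine, 9.42 and 6.37 under RG3039, and 71.1 and 92.8 under both drugs. All 4 single-drug libraries lay above both DMSO libraries and well under the combination. GNG11, a G protein γ subunit gene, stood at 0 and 1.51 under DMSO, 6.74 and 1.04 under decitabine, 6.72 and 7.16 under RG3039, and 53.3 and 39.3 under both drugs. FHL1, which encodes a LIM domain protein of muscle, stood at 0.672 and 1.34 under DMSO, 0 and 6.46 under decitabine, 0 and 9.19 under RG3039, and 34.9 and 26.6 under both drugs. In GNG11 and FHL1 the combination libraries lay well above every single-drug library. SPRED3, of a family of inhibitors of RAS and ERK signalling, stood at 0.563 and 0.562 under DMSO, 2.01 and 21.1 under decitabine, 15.7 and 9.22 under RG3039, and 25.7 and 22.5 under both drugs. TRIM47, a ubiquitin ligase gene, stood at 0 and 0 under DMSO, 2.71 and 14.6 under decitabine, 10.8 and 21.6 under RG3039, and 25.97 and 26.5 under both drugs. TRIM47 had the smallest ratio of the combination mean to the larger single-drug mean, 1.62, and its RG3039 replicate 2, at about 27 reads, came near combination replicate 1, at about 31.

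The 5 members of channels, receptors and exocytosis ranged from near 0 to substantial values with single drugs. BAIAP3, a factor of dense-core vesicle release (ENSG00000007516.14, chr16:1333601-1349441, plus strand), stood at 0 and 1.15 under DMSO, 35.8 and 5.54 under decitabine, 25.1 and 2.73 under RG3039, and 82.6 and 149.7 under both drugs. With each single drug replicate 1 was above 20 and replicate 2 was a few reads, so the duplicates lay far apart. PKD2L1, a cation channel gene (ENSG00000107593.17, chr10:100288154-100330486, minus strand), stood at 0 and 1.51 under DMSO, 0 and 0 under decitabine, 0 and 0.796 under RG3039, and 32.5 and 27.4 under both drugs. PKD2L1 was 1 of the 3 members at 3 or less in all single-drug libraries. LRTM2, a leucine-rich repeat transmembrane protein gene, stood at 1.51 and 1.51 under DMSO, 5.39 and 13.5 under decitabine, 4.03 and 0 under RG3039, and 56.6 and 41.4 under both drugs. CHRNE, the ε subunit of the muscle acetylcholine receptor, stood at 0 and 0 under DMSO, 21.6 and 7.27 under decitabine, 5.37 and 1.59 under RG3039, and 46.6 and 35.1 under both drugs. CBARP, a regulator of voltage-gated calcium channels, stood at 1.51 and 1.51 under DMSO, 8.09 and 25.98 under decitabine, 16.1 and 31.8 under RG3039, and 50.8 and 30.9 under both drugs. CBARP was the 1 member whose combination mean (40.8) did not exceed the sum of its single-drug means (41.01).

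A further 7 members encode proteins of the cytoskeleton, cell surface, autophagy or transport. SMIM22, a small integral membrane protein gene (ENSG00000267795.6, chr16:4788397-4796491, plus strand), was listed at 0 in the 2 DMSO and 2 RG3039 libraries, at 18.8 and 23.1 with decitabine and at 63.5 and 108 with the combination. PPL, the desmosomal plakin periplakin, stood at 0.330 and 0.707 under DMSO, 3.53 and 5.44 under decitabine, 71.3 and 0.347 under RG3039, and 103 and 67.2 under both drugs. In PPL a single library, RG3039 replicate 1, overlapped the combination range, and its duplicate was near 0. MTSS1, which binds actin and bends membranes, stood at 0 and 1.14 under DMSO, 13.5 and 10.6 under decitabine, 0.338 and 37.997 under RG3039, and 105 and 59.5 under both drugs. ABCC6, an ATP-binding cassette transporter gene, stood at 1.26 and 0 under DMSO, 75.97 and 3.08 under decitabine, 14.3 and 4.56 under RG3039, and 86.4 and 46.4 under both drugs, with decitabine replicate 1 above combination replicate 2. MTSS1 and ABCC6 each had 1 high single-drug library whose duplicate was far lower. MAP1LC3A, an LC3 gene of autophagosomes, stood at 2.29 and 1.52 under DMSO, 12.2 and 14.6 under decitabine, 21.6 and 9.62 under RG3039, and 43.6 and 34.1 under both drugs. The brush border myosin gene MYO1A and the stromal endosialin gene CD248 were the lowest of these with the combination, at 23.7 ± 3.92 and 25.5 ± 0.374 (mean ± SD, n = 2).

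Germline genes were represented by 3 members. TDRD6, a tudor-domain protein of the chromatoid body of spermatids (ENSG00000180113.16, chr6:46687875-46704319, plus strand), stood at 0 and 0 under DMSO, 2.03 and 6.64 under decitabine, 0 and 0 under RG3039, and 39.8 and 54.5 under both drugs. TSPYL6, of the testis-specific protein Y-like family, stood at 0 and 0 under DMSO, 2.697 and 9.35 under decitabine, 0 and 0 under RG3039, and 20.8 and 23.2 under both drugs. Both were at 0 in all DMSO and RG3039 libraries, and low with decitabine. CT75, annotated as a cancer/testis transcript, stood at 0.219 and 2.59 under DMSO, 1.83 and 17.6 under decitabine, 19.02 and 34.2 under RG3039, and 59.99 and 41.2 under both drugs, and here RG3039 gave the larger single-drug mean. TDRD6 was the only member in a list of 166 cancer-testis and germline genes found in the table, of which 101 were silent in DMSO. Of 65 other members of that list that were tested, 9 rose and 0 fell under decitabine, 2 and 0 under RG3039, and 16 and 2 under both drugs, against 1.74% and 0.405%, 4.53% and 3.59%, and 11.4% and 12.7% of all tested genes. Their median log2 fold changes were 0.82, 0.23 and 0.65, and those of all tested genes 0.01, -0.00 and 0.04.

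By GENCODE 29 the members are 30 protein-coding genes, 12 long non-coding RNA genes, 5 pseudogenes, CT75 among them, and 2 genes without a position there. AC048338.2 is an uncharacterised gene annotated as coding. AC048338.2 had the highest combination mean of all, 175 ± 119, yet it was uneven, at 0 and 0 under DMSO, 0 and 0 under decitabine, 0 and 72.4 under RG3039, and 259.7 and 91.3 under both drugs. It shares its strand and span with DIABLO, which stood at 1025 and 1258 under DMSO, 872 and 1045 under decitabine, 1184 and 1180.3 under RG3039, and 716 and 984 under both drugs, so reads of the 2 genes may have been divided between them. The pseudogene AC025048.6 was listed at 0 in 6 libraries and at 203 and 64.6 with the combination. CHCHD3P3 and RPL21P134 are processed pseudogenes, which resemble their parent genes, and this makes their levels uncertain. CHCHD3P3 stood at 0 and 0 under DMSO, 0 and 62.4 under decitabine, 0 and 91.5 under RG3039, and 127 and 93.4 under both drugs. The long non-coding RNA gene AC003092.1 (ENSG00000236453.5, chr7:94022833-94066661, plus strand) was at 0 in all 6 other libraries and at 35.9 and 30.8 with the combination. The duplicates of AC003092.1 were close, unlike those of CHCHD3P3 under single drugs. NALT1, an antisense gene, stood at 0 and 1.51 under DMSO, 0 and 10.4 under decitabine, 18.8 and 13.5 under RG3039, and 31.6 and 25.3 under both drugs, with a ratio to the larger single-drug mean of 1.76. AP003327.2 was at 0 in 5 libraries, at 5.39 in decitabine replicate 1 and at 25.8 and 31.6 under both drugs. AC021016.2, an antisense gene, had the closest duplicates, at 0 and 0 under DMSO, 8.09 and 10.4 under decitabine, 8.06 and 14.3 under RG3039, and 67.4 and 67.4 under both drugs.

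A comparison with the sum of the single drugs describes the same choice on another scale. In 48 of 49 members the combination mean exceeded the sum of the decitabine and RG3039 means. That was so in 5.67% of the 14630 genes at 20 or more in both combination libraries, and in 64.9% of the 57 other genes silent in DMSO that passed 20. Both combination libraries lay above all 4 single-drug libraries in 44 members, against 15.4% of the 14630 genes and 59.6% of the 57. The overlap was in PPL, ABCC6, AC007611.1, CBARP and AC022730.4. The rule kept genes low with single drugs, so these counts say nothing further. The combination mean was a median of 2.98 times the larger single-drug mean in the 47 members where that mean was above 0. The larger single-drug mean was that of decitabine in 24 members and that of RG3039 in 25, ties at 0 counted with decitabine.

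**Figure D3:**
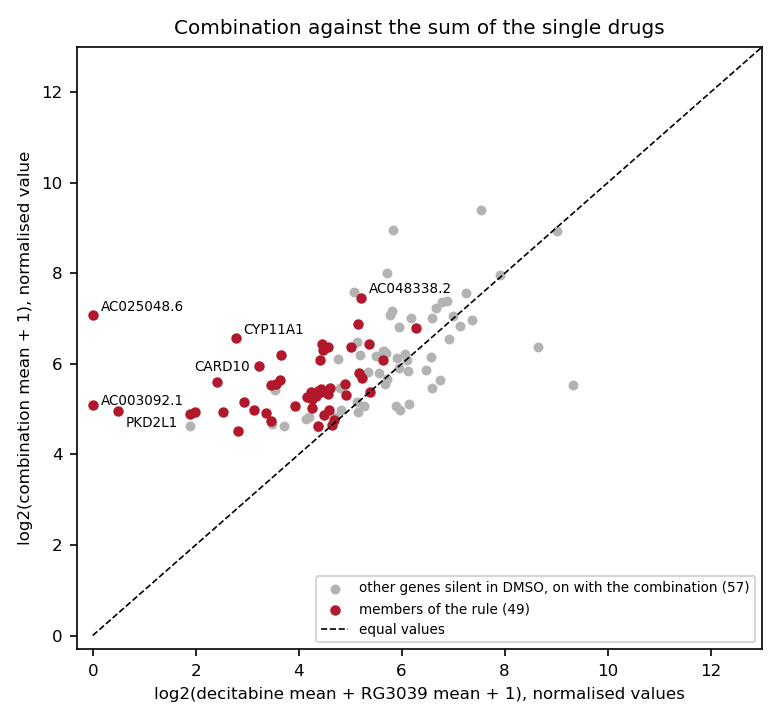
Combination mean (y axis) against the sum of the decitabine and RG3039 means (x axis), both as log2(normalised value + 1), for the 49 members (red) and the 57 other genes silent in DMSO and at 20 or more with the combination (grey). The dashed line marks equal values, and 48 members lie above it.

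Genes next to the thresholds differed from members by less than a read or a few reads. At the ceiling of 3 in DMSO, the highest members were AC132938.4 (2.998), AC007611.1 (2.988) and TPH2 (2.95), and just outside stood AC024475.3 (3.001), NMUR1 (3.019) and AC007342.5 (3.019). At the floor of 20 with the combination, the lowest members were AC022730.4 (20.4), TSPYL6 (20.8) and CYP19A1 (20.8). Just outside were AC018464.1 (19.98), AC027020.1 (19.8) and the cancer/testis gene PASD1 (19.7). At the single-drug floor, AC020687.1 had 19.04 as the lower of its decitabine values, CT75 19.02 as the lower of its RG3039 values and SMIM22 18.8 with decitabine. LAMP3, a lysosomal membrane protein gene of maturing dendritic cells, was outside at 20.7 with RG3039, as were AL365226.1 at 21.6 with decitabine and AC009302.1 at 22.8 with RG3039.

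Reading the rule without 1 library gave the values of a library that took no part in the choice. Without combination replicate 1 the rule found 99 genes, of which 49 (49.5%) reached 20 in the library left out, against 0.575% of genes silent in DMSO. Their median there was 19.1, and 11 were listed at 0. Without combination replicate 2 it found 144 genes, of which 49 (34.0%) reached 20 in the library left out, against 0.440%, with a median of 12.8 and 19 at 0. Without DMSO replicate 1 or 2 it found 95 genes each time, and 49 (51.6%) were at 3 or less in the DMSO library left out, against 1.44% and 1.31% of genes at 20 or more with the combination. Without decitabine replicate 1 or 2 it found 43 and 44 genes, of which 88.4% and 86.4% were below 20 in the library left out, against 56.6% each time of the 106 genes silent in DMSO that passed 20 with the combination, members included. Without RG3039 replicate 1 or 2 it found 38 and 46 genes, of which 92.1% and 76.1% were below 20 there, against 83.02% and 74.5% of the 106. Of these 106, 33 were at 20 or more in both libraries of decitabine only, 10 of RG3039 only and 4 of each drug. Such genes cannot be below 20 in a library of that drug. The gaps for the single drugs are thus partly set by this pool and cannot be compared between the drugs. A gene that passed in 1 combination library thus often failed in its duplicate, while a share of at least 34.0% did not. By definition, the 49 genes that met the threshold in a left-out DMSO or combination library are the members themselves. All genes found without a single-drug library are by definition members too, so those shares describe the members' own values. The background genes did not have to pass in the duplicate of the library left out. The gap between the shares therefore reflects at least the likeness of duplicates, and nothing beyond that was tested.

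**Figure D4:**
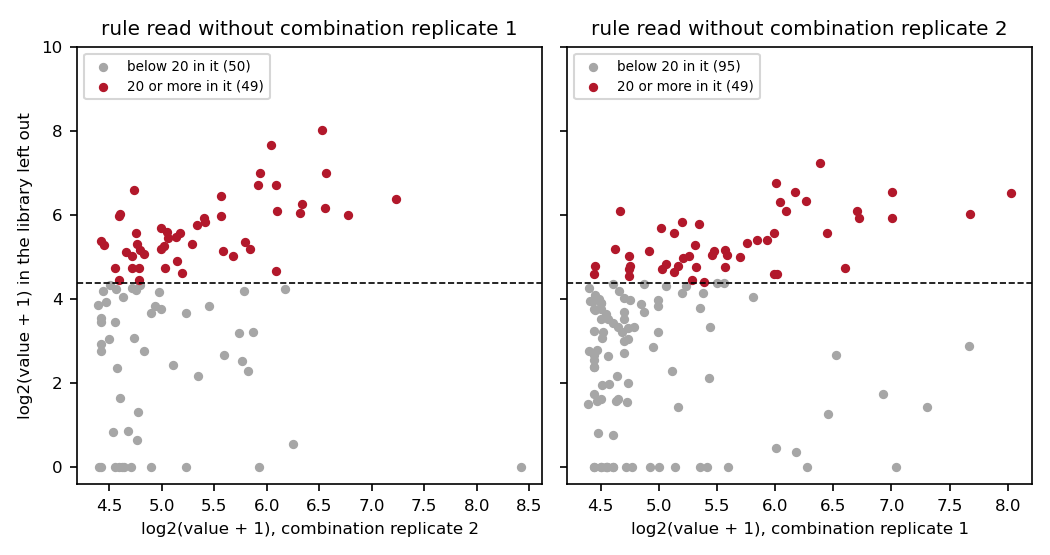
Genes found by the rule when 1 combination library is left out. The x axis gives log2(value + 1) in the combination library used and the y axis that in the one left out, the dashed line is a value of 20, and 49 of 99 genes (left) and 49 of 144 (right) lie on or above it.

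The chromosomal neighbourhood of the members was not used by the rule. For the 47 members with a position in GENCODE 29 (GRCh38, the build named by the submitters), the nearest tested gene on each side was taken, which gave 91 distinct neighbours at a median distance of 57.8 kb between start sites. Changes were tested with limma on log2(value + 1) over the 17534 genes whose mean was 10 or more, and a call needed an adjusted p below 0.05. With the combination 21 neighbours rose (23.1%) and 9 fell (9.89%), against 11.4% and 12.7% of all tested genes. With RG3039 9 rose and 0 fell, against 4.53% and 3.59%, and with decitabine 3 rose and 0 fell, against 1.74% and 0.405%. At an unadjusted p under 0.05 the neighbours numbered 43 with the combination, 22 with RG3039 and 18 with decitabine, against 36.2%, 22.8% and 17.9% of all tested genes. These comparisons share the DMSO libraries. The median log2 fold change of the neighbours with the combination was 0.13, beside 0.04 for all tested genes. Leaving out combination replicate 1 left 13 neighbours that rose (14.3%, against 5.99% of all tested genes). Without the 14 neighbours whose spans overlap a member, 17 of 77 rose with the combination (22.1%), and among neighbours with a start within 50 kb 11 of 45 did (24.4%). In the interaction, (combination - decitabine) - (RG3039 - DMSO), limma called 0 of the 17534 genes (0%), while 1014 of them (5.78%) and 7 of the 91 neighbours had an unadjusted p under 0.05.

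Beside CCR3, the gene of another chemokine receptor, CCR1, stood at 605 and 645 under DMSO, 945 and 1051 under decitabine, 979.5 and 971 under RG3039, and 2717 and 2654 under both drugs and rose with the combination (2.10 ± 0.15 log2 fold change ± SE, limma adjusted p = 4.98e-05). CACNA2D4, a calcium channel subunit gene whose span holds LRTM2 on the other strand, stood at 335 and 328 under DMSO, 797 and 889.7 under decitabine, 635 and 579 under RG3039, and 1497 and 1677 under both drugs and rose too (2.26 ± 0.17, adjusted p = 6.25e-05). Whether counting used the strand is not stated in the labels, so for both pairs reads of the 2 strands cannot be told apart. SEMA7A, a membrane-anchored semaphorin gene 66.2 kb from CYP11A1, stood at 33.3 and 28.7 under DMSO, 94.4 and 77.9 under decitabine, 76.6 and 48.5 under RG3039, and 231 and 274 under both drugs (2.98 ± 0.37, adjusted p = 0.000569). CD93, a receptor of myeloid and endothelial cells beside AL118508.1, stood at 26.5 and 10.6 under DMSO, 199.6 and 256 under decitabine, 34.9 and 14.3 under RG3039, and 291 and 249 under both drugs, high in all 4 libraries given decitabine (3.92 ± 0.53 with the combination, adjusted p = 0.000938). TNIP1, an NF-kB inhibitor gene beside GPX3, rose by 1.36 ± 0.16 (adjusted p = 0.000425), and TNFAIP8L3 beside CYP19A1 by 1.99 ± 0.28 (adjusted p = 0.00116). AC100803.3, beside the antisense gene AC011676.4, rose by 3.05 ± 0.34 (adjusted p = 0.000356), and it was called with RG3039 as well (2.94 ± 0.34, adjusted p = 0.00130). In the opposite direction SCD, the stearoyl-CoA desaturase gene beside PKD2L1, stood at 4281 and 4183 under DMSO, 2649.5 and 2552 under decitabine, 3891 and 2738 under RG3039, and 1544 and 1347 under both drugs and fell (-1.55 ± 0.18, adjusted p = 0.000409). Both neighbours of KIR3DL1, picked here after their values were seen, are KIR genes that rose (KIR2DL4 by 4.68 ± 1.02, adjusted p = 0.00925, and KIR3DL2 by 3.08 ± 0.67, adjusted p = 0.00955) and may share reads with it.

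**Figure D5:**
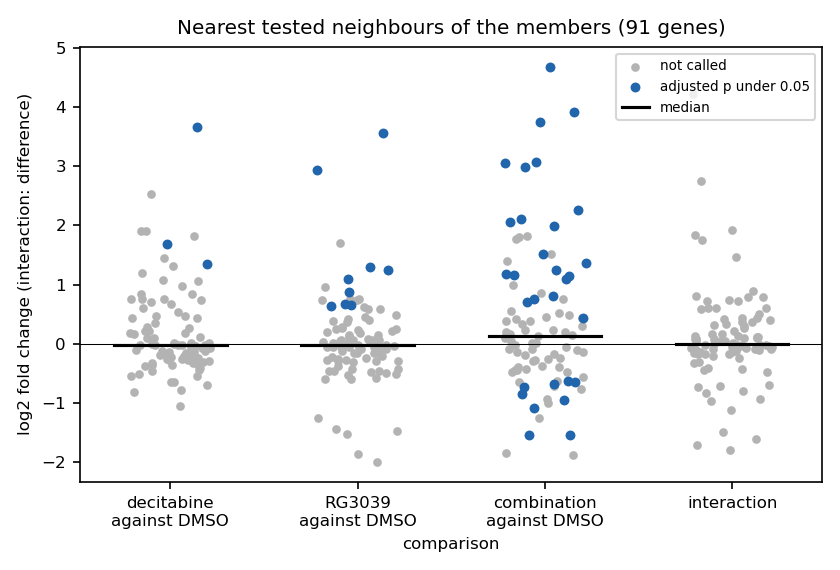
Log2 fold changes (y axis; for the interaction, the difference of log2 fold changes) of the 91 nearest tested neighbours in 4 comparisons (x axis). Blue points are called by limma, bars are medians, and with the combination 21 neighbours are called higher and 9 lower.

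Members lay close to each other in 3 places. SMIM22 and PPL lie 86.0 kb apart on chromosome 16, GNG11 and AC003092.1 94.2 kb apart on chromosome 7, and CT75 overlaps AC010980.2 on the other strand on chromosome 2. SMIM22 was at 0 in both RG3039 libraries, where PPL stood at 71.3 and 0.347. With decitabine both genes lay above their DMSO values in both libraries. Whether the pair shares a single-drug pattern cannot be read from 1 high library. AC010980.2 stood at 0 and 1.51 under DMSO, 13.5 and 17.7 under decitabine, 13.4 and 13.5 under RG3039, and 35.8 and 56.2 under both drugs. In all, 20 members overlapped a gene whose mean was 10 or more, 5 on the same strand and 16 on the opposite one, and whether their values hold reads of that gene was not tested. The 47 members with a position were on 19 chromosomes.

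Genes of DNA methylation and chromatin repression were read from a list of 54 genes found in the table, none of which is a member. No methylation or chromatin data enter here. Of 53 tested, 0 rose and 0 fell under decitabine, 0 rose and 1 fell under RG3039, and 2 rose and 11 fell under both drugs, against 1.74% and 0.405%, 4.53% and 3.59%, and 11.4% and 12.7% of all tested genes. At an unadjusted p under 0.05 limma had 8, 11 and 20 of the 53 in these comparisons, against 17.9%, 22.8% and 36.2% of all tested genes. Their median log2 fold changes were -0.09, -0.05 and -0.18, beside 0.01, -0.00 and 0.04 for all tested genes. DNMT1, the maintenance methyltransferase, stood at 13815 and 11548 under DMSO, 13058 and 9427 under decitabine, 9522 and 6551 under RG3039, and 4843 and 5966 under both drugs, and it fell with the combination (-1.23 ± 0.22, limma adjusted p = 0.00370). KDM1A, a histone demethylase of repressor complexes, was the gene that fell with RG3039 (-0.70 ± 0.18, adjusted p = 0.0466), and it fell with the combination (-1.02 ± 0.18, adjusted p = 0.00382). Its RG3039 call lay close to the limit of 0.05 and was not checked in other settings of the fit. Its combination call was kept in all 16 of them. EED, a subunit of Polycomb complex PRC2, fell with the combination (-1.12 ± 0.25, adjusted p = 0.0108). That call was lost without the mean-variance trend, without DMSO replicate 1 and without combination replicate 1 (adjusted p up to 0.0907). UHRF1, which guides DNMT1 to new DNA, fell as well (-0.72 ± 0.17, adjusted p = 0.0146), a call lost without the trend, DMSO replicate 2 or either combination library (adjusted p up to 0.0823). TET2, which oxidises methylcytosine, rose with the combination (0.96 ± 0.16, adjusted p = 0.00262). DCPS, the target of RG3039, was at 960.2 and 657 under DMSO, 1100.3 and 865 under decitabine, 966 and 659.7 under RG3039, and 543 and 416 under both drugs and was not called with the combination (-0.74 ± 0.27, adjusted p = 0.0740), though it was with the replicate number as a block (adjusted p = 0.0111).

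Other cell types were checked by markers. The summed level of 8 promyelocyte markers, most of it MPO, was 161296 and 198299 under DMSO, 161067 and 201549 under decitabine, 106746 and 123019 under RG3039, and 91351 and 102582 under both drugs. CEBPE, 1 of the 8, went from 2368 and 2700 under DMSO to 6514 and 7476 under both drugs, against the direction of the sum. The 5 T cell markers summed to 11.4 and 3.01 under DMSO, 48.04 and 64.1 under decitabine, 5.37 and 13.5 under RG3039, and 116 and 239 under both drugs, mostly CD3D and CD3E, while TRBC2 was at 0 outside the combination. The 5 epithelial markers summed to 698 and 317 with DMSO and 1688 and 1188 with the combination, all but a small part of it KRT8 and KRT18, and KRT19 was at 0 throughout. With decitabine alone this sum was 773 and 786, and with RG3039 alone 813 and 577. Of 6 fibroblast markers 5 stayed under 20 in every library, and of 5 neuronal markers 4 did. PECAM1, nearly all of the endothelial sum and a gene that myeloid cells also express, was at 608 and 582 with DMSO and at 3085 and 3460 with the combination, and CDH5 was at 0 throughout. PECAM1 was at 565 and 821 with decitabine alone and already at 1633 and 1875 with RG3039 alone. The 4 B cell markers summed to 117 and 46.0 with DMSO and 154 and 173 with the combination. With decitabine they summed to 196 and 148 and with RG3039 to 113 and 118. The 7 erythroid markers had duplicates far apart, at 1621 and 363 with DMSO and 2392 and 665 with the combination. Their sums were 1481 and 1464 with decitabine and 1747 and 1133 with RG3039. The part of these T cell, B cell, epithelial, endothelial and erythroid markers in the members' values was not tested. Of 55 tested myeloid maturation genes, 7 rose and 0 fell under decitabine, 21 rose and 2 fell under RG3039, and 36 rose and 2 fell under both drugs, against the shares of all tested genes given above. Their median log2 fold changes were 0.60, 0.65 and 1.51. A rise under both drugs was not particular to this list. There 10 of 26 tested epithelial genes rose and 0 fell, 10 of 31 stromal genes and 0, and 5 of 12 lymphoid genes and 1. Of 20 erythroid and megakaryocyte genes 4 rose and 0 fell, and of 42 interferon-stimulated genes 7 rose and 2 fell. More fell than rose of 23 neuronal genes (3 rose, 4 fell), 19 heat shock and metal genes (4, 5) and 12 promyelocyte genes (2, 4). The gene lists read here and above were chosen with earlier results of these data known, so their counts are a description and no independent support. Members were in 2 of the 11 gene lists, the germline and the interferon list.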

How the data were processed

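RNA of 8 HL-60 libraries was measured by QuantSeq 3′ RNA-seq. The table deposited by the authors gives 1 normalised signal for each of 60240 Ensembl genes in each library. The submitters' processing notes name hg38, DESeq2, limma, featureCounts, Salmon 1.2.1 and STAR without saying which of them made the values. Low values (at most 20.5 reads) of 1-transcript genes fell on whole multiples of 1 step per library (tolerance 0.02) in 97.5% to 98.1% of cases, but in only 74.4% to 80.8% over all genes, so no count model was run. The step is the value of 1 read, and totals divided by it gave an estimated 20700000 to 40900000 reads per library.

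The rule was applied to the deposited values. The members and the gene lists were chosen with earlier results of these data known. For genes outside the rule, log2(value + 1) of 17534 genes with a mean of at least 10 was fitted in limma 3.58.1 (R 4.3.3) with a mean per group, a mean-variance trend and 4 residual degrees of freedom, in 4 two-sided contrasts with Benjamini-Hochberg adjustment. Of the members, 41 passed that filter and 8 did not. The fit was tested on simulated data. Positions came from GENCODE 29 and promoter windows from RefSeq, matched by symbol or identifier. The text names the 10 members highest with the combination, those with the 6 largest and 4 smallest ratios to the larger single-drug mean, those at the thresholds, members of the lists, and others by role. It also names the 8 neighbours with the smallest p, 2 KIR neighbours chosen after their values were seen, and up to 4 silencing genes with the smallest p, with DNMT1, UHRF1 and DCPS. Alternatives were other thresholds, pseudocounts, filters, TMM scaling, no trend, only the groups compared, a replicate block and leaving out each library. Python 3.11.15, pandas 2.3.3, numpy 2.4.6 and matplotlib 3.10.9 were used.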

Additional observations from a re-analysis of the deposited data

How the results depend on the processing

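The number of genes found by the rule followed its thresholds. It was 25 with a DMSO ceiling of 1, 141 with a ceiling of 10, 107 with a floor of 10, 26 with a floor of 40 and 28 when all 4 single-drug libraries had to be below 20. It was 51 after TMM scaling and 59 with no names left out, a choice made after seeing the data. Without 1 library it ran from 38 to 144, with 95 to 144 without a DMSO or combination library, where fewer values have to pass, and 38 to 46 without a single-drug library, where the limit on that drug rests on 1 library. The counts of members above 3 in both libraries of a single drug stayed within 1.5 times under each alternative, from 24 to 36 for decitabine and 20 to 29 for RG3039 when a library was left out, as did members above the sum of the single drugs (44 to 49). Neighbours that rose with the combination numbered 11 within 50 kb, where fewer neighbours enter, and 13 (without combination replicate 1, 14.3% against 5.99% of all tested genes) to 21 without 1 library. Genes called with decitabine were 376, and 225 when no low genes were filtered, 210 when the trend was dropped, 132 with only the groups compared and 79 to 503 without 1 library. With RG3039 1424 were called, and 718 without the trend, 860 with only the groups compared and 505 to 1264 without 1 library. With the combination 4221 were called, and 2154 to 4083 without 1 library. The interaction gave 0 to 2 calls without 1 library and 0 otherwise. Replicate numbers share no stated origin, and the correlation of same-numbered deviations ran from -0.077 to 0.161. With the replicate number as a block 525, 1690, 4619 and 0 genes were called with decitabine, RG3039, the combination and in the interaction, and 21 neighbours rose. Where a group is left with 1 library, it is assumed to vary like the others. The 8 neighbours with the smallest p kept their combination calls in all 16 alternatives, which were not run for the 2 KIR neighbours. At the floor of 20 a value rests on 13 to 28 reads, and no limit of detection was computed.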
